A study of Mus musculus with 18 samples.

Results

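Mitosis genes are the genes whose products drive and carry out cell division: the kinase and cyclins that start it, the kinetochore and spindle that move the chromosomes, the checkpoint that delays anaphase, and the machinery of cytokinesis. Their transcripts are made mostly in G2 and mitosis and are low in resting cells, so their summed level is widely used as a measure of how many cells of a tissue are cycling. In the airway, basal stem cells (BSCs) are the dividing cells that renew the pseudostratified epithelium, while alveolar type 2 cells of the undamaged lung divide rarely. The 42 genes described here were listed by symbol and found by Entrez identifier in the deposited counts. All 42 of the 42 were present among 27179 genes, and all 42 passed the filter on low counts that left 17989 genes to test.

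RNA had been sequenced from 6 populations of sorted cells, with 3 libraries each and 18 in all, from untreated C57BL/6 mice, with no genetic change named in the labels, which the methods of the study describe as young adult males. BSCs (NGFR-positive) and non-basal cells (the NGFR-negative cells left over, a mixture) came from the tracheas of mice 1 to 3, and EpCAM-negative cells, airway cells with high or low CD24 and alveolar cells (EpCAM-positive with low CD104) from the lungs of mice 4 to 6. Trachea and lung therefore differ in animals and in organ as well as in cell type, and these cannot be told apart in any comparison across them. Within an organ, libraries with the same number come from the same mouse. Levels are given as RPKM, the reads of a gene per kilobase of its counted length, relative to a library size with TMM scaling, which trims extreme genes before it sets libraries to a common level, and differences as log2 fold changes from the counts.

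The labels were checked against marker transcripts. The summed level of the basal markers *Krt5*, *Krt14*, *Trp63* and *Ngfr* was 1717 to 1801 RPKM in BSCs, 121.8 to 156.6 RPKM in non-basal cells and 0.303 to 1.26 RPKM in alveolar cells. The ciliated cell markers *Foxj1*, *Ccdc39*, *Dnah5* and *Tekt1* summed to 931 to 993 RPKM in CD24hi airway cells and to 80.8 to 168 RPKM in CD24lo airway cells. The club cell markers *Scgb1a1*, *Scgb3a2* and *Cyp2f2* had their highest sum in CD24lo cells, at 490208 to 690882 RPKM. They summed to 82843 to 92023 RPKM in non-basal cells. *Scgb1a1* made up most of the sum in CD24lo cells, while *Scgb3a2* and *Cyp2f2* had their highest means in non-basal cells. Leukocyte markers summed to 16.2 to 34.4 RPKM in non-basal cells and 17.6 to 20.8 RPKM in BSCs. Tracheal libraries held 29317215 to 32993621 counted reads and lung libraries 9811503 to 13208897. A low transcript was thus counted with a larger error in lung: no mitosis gene had fewer than 200 reads summed over the 3 libraries of either tracheal population, while *Ttk* had 6 in CD24hi airway cells.

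Some libraries stood apart from the others of their population. Alveolar replicate 2 stood apart from replicates 1 and 3 of its population, with a chi-square per degree of freedom of 41.1 and 39.2 against 6.05 between the other two. It held the highest level of 36 of the 42 mitosis genes among alveolar libraries, with a median ratio to the mean of replicates 1 and 3 of 1.84, against 0.981 for all tested genes. *Mki67*, for example, was counted 84, 180 and 76 times in the 3 alveolar libraries. Some markers of other cells were highest in alveolar replicate 2 too. Basal markers summed to 0.303, 1.26 and 0.436 RPKM in the 3 libraries and endothelial markers to 47.6, 90.7 and 60.2 RPKM. Leukocyte and club markers were also highest there, while ciliated, alveolar type 2, suprabasal or hillock, and fibroblast or smooth muscle markers were not. The part of such cells in its mitosis transcripts was not tested. Replicate 1 of BSCs, non-basal cells, CD24hi and CD24lo airway cells stood apart too, with 22.5 to 42.4 per degree of freedom from replicates 2 and 3, which differed by 5.48 to 7.88. It was highest for 36 of the 42 in BSCs, with a median ratio of 1.16, and for 5, 13 and 14 in the other 3 populations. Where leaving out a library ended a call that is given with its own value, the value or range of values without it is stated. Calls that enter a count only were not followed in this way.

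**Figure D1:**
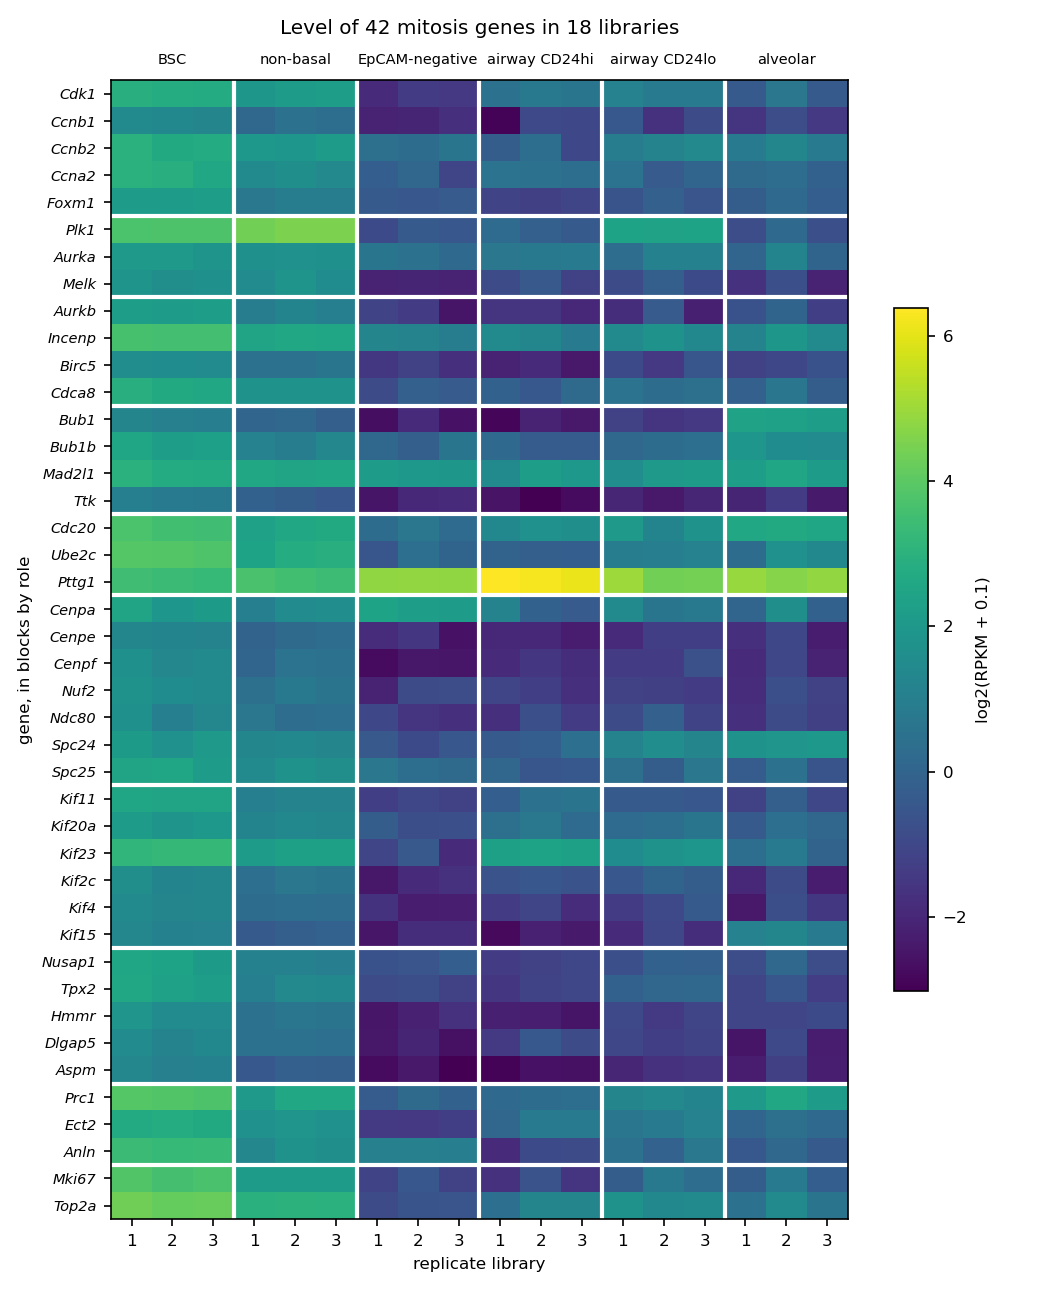
Heat map of the level of each mitosis gene (rows, in blocks by role) in each of the 18 libraries (columns, 3 per population), coloured by log2(RPKM + 0.1). The 3 BSC columns are brightest in most rows and the 3 non-basal columns come next, while 9 rows, among them *Plk1*, *Pttg1*, *Bub1* and *Kif15*, depart from this order and alveolar replicate 2 is brighter than its neighbours.

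Many promoters of these genes carry a cell cycle homology region (CHR), the site read by the DREAM and MuvB complexes, and CCAAT boxes, which bind NF-Y. RefSeq promoters on GRCm38.p6, from 250 bases before to 50 after each transcription start, were matched for 34 of the 42 genes, with 36 promoters. The letters TTTGAA, on either strand, lay in 27 of the 36 (75%), against 17.9% of all 32851 promoters of the same length. CCAAT, on either strand, lay in 26 (72.2%), against 37.4% of all, and both in 23 (63.9%), against 6.95%; a base shared by both matches was counted for each. The following stretches, upstream of the start and outside exons of the basic GENCODE set, are shown for genes that the results turn on, with these letters in capitals and read 5′ to 3′ along the gene. *Cdk1*, *Top2a* and *Ccnb2* were highest in BSCs and next in non-basal cells, the order of most of the 42 genes, and *Cdc20*, *Plk1* and *Bub1* were not.
Cdk1 (chr10:69352939-69353058, minus strand): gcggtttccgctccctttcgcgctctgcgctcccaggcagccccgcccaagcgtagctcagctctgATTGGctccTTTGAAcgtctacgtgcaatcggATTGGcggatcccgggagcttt
Cdc20 (chr4:118437353-118437472, minus strand): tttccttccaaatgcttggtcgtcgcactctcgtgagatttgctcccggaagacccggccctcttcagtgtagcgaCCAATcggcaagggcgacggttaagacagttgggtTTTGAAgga
Top2a (chr11:99024190-99024309, minus strand): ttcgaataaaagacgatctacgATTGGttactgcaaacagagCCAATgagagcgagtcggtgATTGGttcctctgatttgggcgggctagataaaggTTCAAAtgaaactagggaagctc
Ccnb2 (chr9:70421555-70421674, minus strand): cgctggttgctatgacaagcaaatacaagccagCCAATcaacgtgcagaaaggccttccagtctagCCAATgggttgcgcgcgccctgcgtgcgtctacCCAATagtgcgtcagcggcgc
Plk1 (chr7:122159402-122159434, plus strand): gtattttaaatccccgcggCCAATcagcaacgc
Bub1 (chr2:127831866-127831985, minus strand): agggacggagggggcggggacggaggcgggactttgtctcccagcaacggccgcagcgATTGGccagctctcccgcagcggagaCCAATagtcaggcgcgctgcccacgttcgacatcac

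In the whole windows, *Plk1*, *Cdc20*, *Cdk1*, *Top2a* and *Ccnb2* held both sets of letters, *Bub1* held CCAAT alone, and *Pttg1* held neither. The *Pttg1* window belongs to a start 270 bases inside the annotated gene, and 4 of the 36 promoters start over 200 bases inside, the others being those of *Kif2c*, *Cdca8* and *Kif4*. *Melk*, *Mad2l1*, *Nuf2*, *Nusap1* and *Birc5* also held neither. These matches describe the letters of a window and say nothing of what binds there.

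BSCs were compared first with the non-basal cells of the same tracheas. Mitosis genes were higher in BSCs at nearly every step of division: 36 of the 42 were higher at an adjusted p-value under 0.05 and 1 was lower, against 21.9% of all tested genes higher and 26.2% lower, or 48.2% in either direction. The 42 had a median difference of 1.08 on the log2 scale, with -0.02 for all tested genes. The proliferation marker *Mki67*, which coats mitotic chromosomes, and the DNA decatenating enzyme *Top2a*, which make up the group of mitotic chromosomes, are given first. *Mki67* stood at 14.1, 12.2 and 12.7 RPKM in the 3 BSC libraries and at 4.31, 4.34 and 4.36 RPKM in the non-basal libraries, a log2 fold change of 1.58 (SE 0.28, edgeR adjusted p = 0.00016). *Top2a* stood at 20.3, 17.6 and 18 RPKM in BSCs and at 7.59, 8.03 and 7.78 RPKM in non-basal cells (1.26, SE 0.20, adjusted p = 4.32e-05). In both genes every BSC library lay above every non-basal library. In these sorted but bulk samples, fewer dividing cells and less RNA of these genes per cell cannot be told apart.

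All 5 genes of entry into mitosis were higher in BSCs. *Ccnb2*, a B-type cyclin, was at 7.90, 6.29 and 6.74 RPKM in BSCs and 3.85, 3.69 and 4.44 RPKM in non-basal cells (log2 fold change 0.80, SE 0.19, edgeR adjusted p = 0.00207). *Ccnb1*, the other B-type cyclin and the lowest of the 5, was at 2.64, 2.51 and 2.29 RPKM against 1.02, 1.35 and 1.21 RPKM (1.06, SE 0.30, adjusted p = 0.00694). Their kinase *Cdk1* differed less, by 0.71 (SE 0.18, adjusted p = 0.00305), and *Foxm1*, the transcription factor of G2 genes, by 1.36 (SE 0.13, adjusted p = 1.8e-07). Without the libraries of mouse 1, left out after their distance from the rest was seen, *Cdk1* and *Ccnb1* differed by 0.60 and 0.90 and no longer passed (adjusted p = 0.0536 and 0.0802), with 1 library fewer on each side. The whole count then fell from 36 to 31 higher, still with 1 lower.

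The mitotic kinases were the exception among the role groups, since none of the 3 was higher in BSCs. *Plk1*, the kinase of mitotic entry, spindle formation and cytokinesis, was at 13.1, 13.3 and 13.4 RPKM in BSCs and at 20.8, 22.7 and 23.1 RPKM in non-basal cells. It was the single mitosis gene lower in BSCs (log2 fold change -0.74, SE 0.14, edgeR adjusted p = 0.000225), and the libraries did not overlap. *Aurka*, the centrosomal Aurora kinase, was at 3.93, 4.12 and 3.45 RPKM against 3.13, 3.24 and 3.13 RPKM (0.27, SE 0.22, adjusted p = 0.328), a fold of 1.21 with a 95% interval of 0.896 to 1.63. Scaling by total reads only, without TMM factors (library size alone), put the median of all genes at 0.31, and the difference of *Aurka* was then 0.62 and passed (adjusted p = 0.0219). *Melk* was at 3.53, 3.02 and 3.16 RPKM against 2.74, 3.46 and 2.82 RPKM (0.11, SE 0.21, adjusted p = 0.71), with libraries that overlapped.

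By contrast, the 4 genes of the chromosomal passenger complex, which corrects faulty kinetochore attachments, were all higher in BSCs. *Incenp*, its scaffold, was at 12.3, 11.7 and 11.7 RPKM against 5.37, 5.96 and 5.62 RPKM (log2 fold change 1.07, SE 0.16, edgeR adjusted p = 1.89e-05). *Birc5* (survivin) was lower in level and differed alike, by 1.08 (SE 0.18, adjusted p = 9.56e-05). Of the spindle checkpoint, *Bub1* (1.19), *Bub1b* (1.25) and *Ttk* (1.28), its kinases and kinase-like scaffold, were higher in BSCs. The exception was *Mad2l1*, which holds back the anaphase-promoting complex: it was at 7.77, 6.74 and 6.56 RPKM in BSCs and 5.83, 5.50 and 5.72 RPKM in non-basal cells. The difference of 0.31 (SE 0.16) did not pass the test at an adjusted p of 0.133, although the libraries did not overlap. It did pass under 4 alternatives, with adjusted p-values of 0.00229 with library size alone, 0.0224 in a fit of the 6 libraries, 0.0388 with limma voom and 0.0454 with the gene length trend removed.

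Anaphase begins when the anaphase-promoting complex and its activator CDC20 mark securin and cyclin B for destruction. *Cdc20* was higher in BSCs, with 13.1, 11.4 and 11.3 RPKM against 5.02, 5.91 and 6.39 RPKM (log2 fold change 1.05, SE 0.15, edgeR adjusted p = 2.18e-05). *Ube2c*, the ubiquitin-conjugating enzyme of the complex, was at 15, 14.3 and 13.7 RPKM against 5.34, 6.83 and 7.14 RPKM (1.15, SE 0.20, adjusted p = 0.00012). Securin itself, *Pttg1*, was not: it was at 11.3, 10.5 and 9.60 RPKM in BSCs and 12.6, 11.5 and 10.7 RPKM in non-basal cells (-0.15, SE 0.14, adjusted p = 0.408), and the groups overlapped. Among 7 centromere and outer kinetochore genes, 6 were higher in BSCs, from *Spc24* (0.69) of the NDC80 complex to *Cenpf* (1.18). *Cenpa*, the histone H3 variant of centromeres, differed by 0.81 (SE 0.34) with an adjusted p of 0.0602, and passed under the same 4 alternatives, with adjusted p-values of 0.006 to 0.0183.

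Every one of the 6 kinesins, the 5 spindle assembly genes and the 3 cytokinesis genes was higher in BSCs. *Kif23*, the kinesin of the central spindle, was at 8.94, 9.26 and 9.31 RPKM against 4.46, 4.89 and 4.93 RPKM (log2 fold change 0.95, SE 0.19, edgeR adjusted p = 0.000433). The largest differences of the 42 were those of *Anln* (1.77, SE 0.20), the actin-binding scaffold of the contractile ring, and of *Aspm* (1.54, SE 0.25), a spindle pole protein, besides *Mki67*. *Anln* was at 10.4, 9.49 and 10.1 RPKM in BSCs and at 2.44, 3.29 and 3.09 RPKM in non-basal cells. *Prc1*, which bundles the microtubules of the central spindle, was at 15, 14.3 and 13.4 RPKM against 4.02, 6.10 and 6.05 RPKM (1.40, SE 0.15, adjusted p = 7.11e-07).

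**Figure D2:**
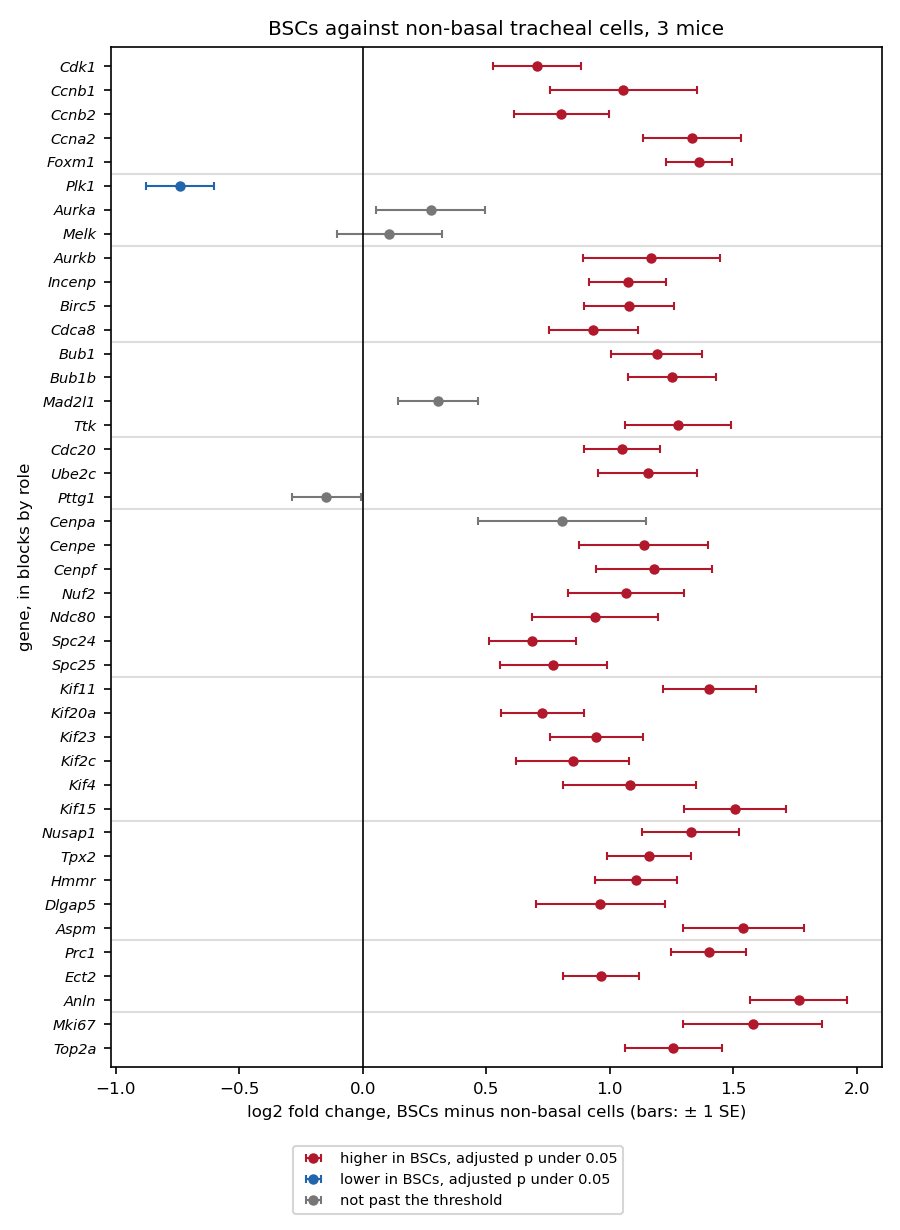
Log2 fold change of each mitosis gene between BSCs and non-basal tracheal cells (x axis, points with bars of 1 SE, 3 libraries each), in blocks by role, with red, blue and grey points for genes higher, lower or not past an adjusted p of 0.05. The 36 red points lie between 0.69 and 1.77, *Plk1* is the single blue point at -0.74, and the 5 grey points are *Aurka*, *Melk*, *Mad2l1*, *Pttg1* and *Cenpa*.

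The non-basal cells were nevertheless far from empty of mitosis transcripts. Within each mouse, the level in non-basal cells was taken as a share of that in BSCs, and the median over the 42 genes of the mean share was 47.6%. In 36 of the 42 the mean share lay between 30% and 65%. *Anln* had the lowest, at 23.6%, 34.7% and 30.4% in the 3 mice, and *Mki67* stood at 30.7%, 35.7% and 34.4%. The 4 basal markers, measured in the same libraries, were at 4.35% to 16.3%, so that each of the 42 genes lay above each of the basal markers in all 3 mice. Mouse 1 had the lowest share in 39 of the 42 genes.

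**Figure D3:**
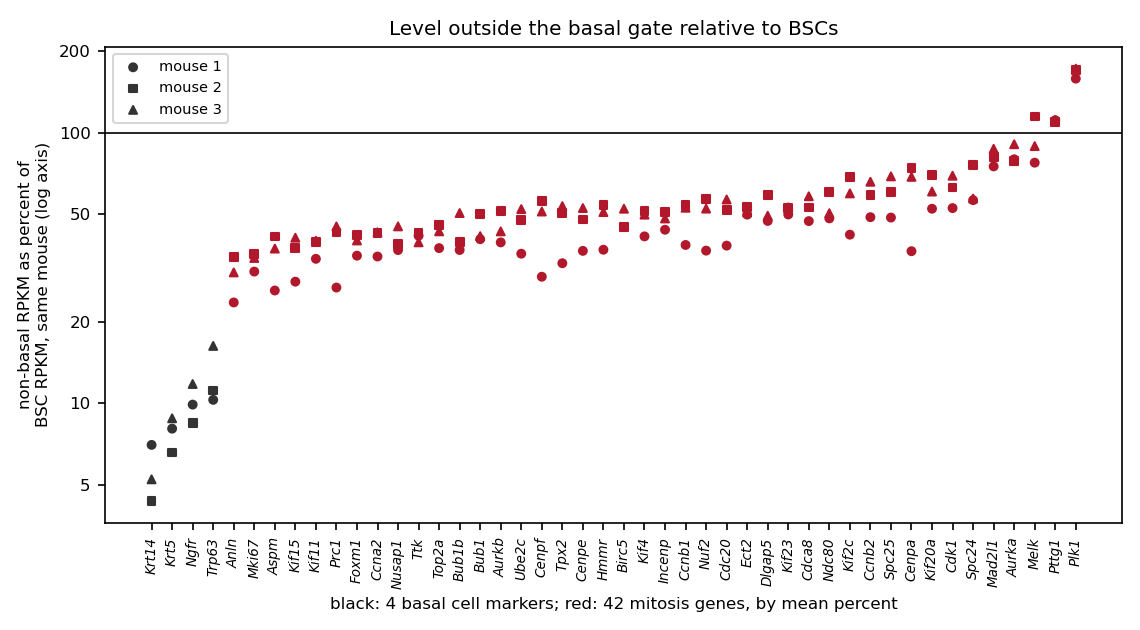
Level in non-basal cells as a percent of the level in BSCs of the same mouse (y axis, log scale), for 4 basal cell markers (black) and 42 mitosis genes (red) ordered by mean percent, with one point for each of mice 1 to 3. All mitosis genes lie above the basal markers, most between 30% and 65%, and *Pttg1* and *Plk1* lie above 100% in every mouse.

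The same comparison was made for other genes of the cell cycle, beside the 21.9% of all tested genes higher in BSCs and the 26.2% lower. Of 22 genes of S phase and replication, 20 were higher in BSCs and 0 lower, the median difference was 0.81, and the largest was that of the primase subunit *Prim1* (1.16, SE 0.18, edgeR adjusted p = 3.33e-05). The smallest was that of *Tyms* (0.12). All 8 condensin genes were higher, from *Ncaph2* (0.25) to *Ncapg2* (1.24), as were 9 of 12 cohesin genes, from *Wapl* (-0.09, not past the test) to *Cdca5* (0.87). Without both libraries of mouse 1 these counts were 5 and 4. Of 29 other kinetochore genes 14 were higher and 1 lower, *Zwint* (-0.49), and *Ska1* differed most (1.45). APC/C subunits and regulators had 3 of 17 higher (17.6%), the regulator *Fbxo5* the most (0.97), and 1 lower (5.88%), *Anapc13* (-0.53). Neither share lay above that of all tested genes. Of 19 MuvB, Rb family and E2F genes, 7 were higher (36.8%), led by *E2f1* (1.03), and 3 lower (15.8%), led by *E2f5* (-0.82). Centriole assembly genes, a list that includes genes of multiciliated cells, ran the other way, with 0 of 14 higher and 7 lower. *Cenpj* lay highest (0.20, not past the test) and *Cdc20b* lowest, with 1, 1 and 0 reads in BSCs and 61, 135 and 141 in non-basal cells (adjusted p = 1.56e-08). In the fit of the 6 libraries alone 9 APC/C subunits and regulators passed, 7 of them higher. With library size alone, the counts past the test rose to 25 for other kinetochore genes, 13 for APC/C subunits and regulators, and 16 for MuvB, Rb family and E2F genes.

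BSCs were next compared with alveolar cells, the comparison at the centre of the study. Of the 42 mitosis genes, 38 were higher in BSCs and 2 lower, against 30.5% and 35.6% of all tested genes (66.1% together), and the median difference was 2.83 on the log2 scale, with -0.09 for all genes. *Mki67* was at 0.735, 1.64 and 0.761 RPKM in the alveolar libraries, all below the 12.2 RPKM of the lowest BSC library, a fold of 12.4 with a 95% interval of 7.96 to 19.2 (edgeR adjusted p = 2.08e-08). The largest difference was that of *Plk1*, at 0.480, 1.04 and 0.504 RPKM in alveolar cells (log2 fold change 4.29, SE 0.20, adjusted p = 2.33e-12). Next came *Anln* (3.69, SE 0.23, adjusted p = 2.13e-10). Leaving out alveolar replicate 2 left 38 higher and 2 lower. Of the wider lists, S phase and replication had 17 of 22 higher and 0 lower, other kinetochore genes 24 of 29 and 2, and condensin 7 of 8 and 0. Cohesin had 10 of 12 and 0, MuvB, Rb and E2F genes 13 of 19 and 2, and APC/C subunits and regulators 4 of 17 and 7. Centriole assembly genes had 7 of 14 higher and 2 lower.

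4 genes did not follow. *Bub1*, the checkpoint kinase, was at 2.30, 2.01 and 1.92 RPKM in BSCs and at 5.18, 5.01 and 4.68 RPKM in alveolar cells (log2 fold change -1.26, SE 0.18, edgeR adjusted p = 8.47e-06). *Kif15*, a spindle kinesin, was at 2.44, 2.08 and 2.11 RPKM in BSCs and 2.14, 2.35 and 1.74 RPKM in alveolar cells (0.09, SE 0.20, adjusted p = 0.719). *Spc24* was at 4.22, 3.22 and 4.06 RPKM against 3.33, 3.55 and 3.89 RPKM (0.10, SE 0.18, adjusted p = 0.667). Libraries of both populations overlapped for *Kif15* and *Spc24*, and the folds of 1.06 and 1.07 had 95% intervals of 0.806 to 1.41 and 0.831 to 1.37. Under library size alone the median of all genes was at 0.29, and both passed (0.49 and 0.50, adjusted p = 0.0419 and 0.0232). The fourth was *Pttg1*, with 30.6, 25.1 and 28.5 RPKM in alveolar cells, each above the highest BSC library (-1.42, SE 0.14, adjusted p = 8.68e-08).

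**Figure D4:**
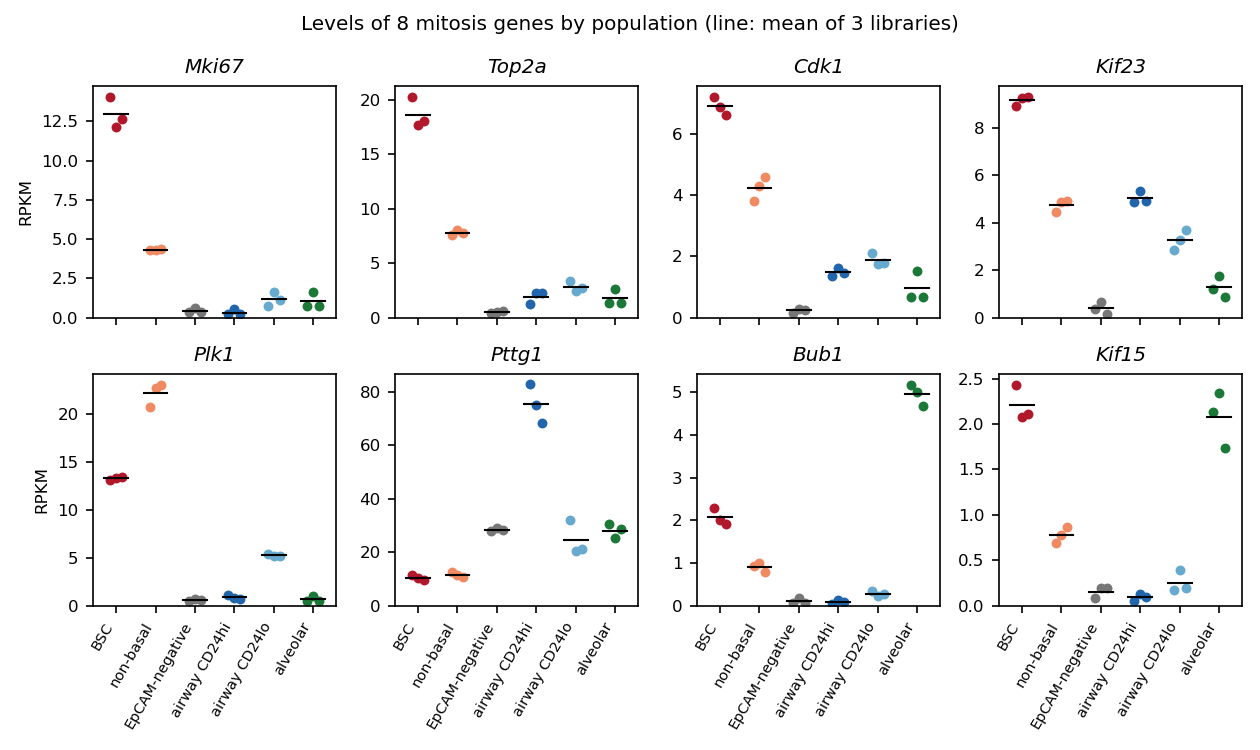
Level in RPKM (y axis, from 0) of 8 mitosis genes in the 3 libraries of each population (points), with a line at the mean. *Mki67*, *Top2a* and *Cdk1* step down from BSCs to non-basal cells to lung, *Kif23* lies near 5 RPKM in both CD24hi airway cells and non-basal cells, *Plk1* is highest in non-basal cells, *Pttg1* in CD24hi airway cells and *Bub1* in alveolar cells, and *Kif15* overlaps between BSCs and alveolar cells.

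Non-basal tracheal cells were compared with 2 of the lung populations. Against alveolar cells 33 of the 42 were higher and 5 lower, with 31.6% and 32.5% of all tested genes (64.0% together), and their median difference was 1.76 on the log2 scale. *Mki67* differed by 2.05 (SE 0.31, edgeR adjusted p = 1.94e-05) and *Plk1* by 5.03 (SE 0.20, adjusted p = 3.24e-13). The 5 lower genes were *Bub1* (-2.45), *Kif15* (-1.42), *Pttg1* (-1.28), *Spc24* (-0.59) and *Bub1b* (-0.58, SE 0.19, adjusted p = 0.0132). *Bub1b* did not pass without non-basal replicate 2 (-0.48, adjusted p = 0.0614) or without alveolar replicate 1 (-0.43, adjusted p = 0.0890). *Cdc20* (-0.05), *Prc1* (0.19), *Mad2l1* (0.22) and *Cenpa* (0.66) did not pass. The call of *Cenpa* turned on alveolar replicate 2, at 3.03 RPKM beside 0.923 and 0.831 RPKM: without it, the log2 fold change was 1.52 (adjusted p = 0.00552). EpCAM-negative lung cells are a mixture, in which fibroblast or smooth muscle markers summed to 7510 to 7844 RPKM and leukocyte markers to 25.9 to 95.1 RPKM. Endothelial markers summed to 154.2 to 256.6 RPKM, which overlapped with the 121.0 to 281.3 RPKM of CD24lo airway cells. Against EpCAM-negative cells, 40 of the 42 were higher in non-basal cells and 2 lower, with 35.6% and 35.9% of all tested genes (71.6% together). The 2 lower genes were *Pttg1* (-1.29, SE 0.14, adjusted p = 2.16e-07) and *Cenpa* (-0.91, SE 0.36, adjusted p = 0.0315). *Cenpa* stood at 5.28, 4.57 and 4.39 RPKM in EpCAM-negative cells and at 1.96, 2.73 and 2.90 RPKM in non-basal cells. Its call there was lost in each of 5 of the 6 fits that leave out 1 library, with differences of -0.75 to -0.96 and adjusted p-values of 0.0527 to 0.108.

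Set in order of their means, BSCs came first and non-basal cells second for 33 of the 42 genes, and BSCs came first for 38. As a percent of the BSC mean, the median gene was at 47.4% in non-basal cells, 17.2% in CD24lo airway cells, 13.9% in alveolar cells, 11.5% in CD24hi airway cells and 7.50% in EpCAM-negative cells. The lowest mean of a gene was found in EpCAM-negative cells for 21 genes and in CD24hi airway cells for 20. *Pttg1* was the remaining gene, lowest in BSCs.

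Among lung populations the differences were smaller and less uniform. Between EpCAM-negative and alveolar cells, 2 of the 42 were higher in EpCAM-negative cells and 18 lower, with 32.7% and 29.2% of all tested genes (61.9% together). *Anln*, at 2.01, 2.01 and 1.88 RPKM against 0.650, 1.00 and 0.670 RPKM, and *Cenpa* were the 2 higher (log2 fold changes 1.34 and 1.56, edgeR adjusted p = 0.000121 and 0.00321). *Bub1* differed most, by -5.64 (SE 0.28, adjusted p = 7.08e-12), with 16 reads in all in EpCAM-negative libraries and 692 in alveolar ones, followed by *Kif15* (-3.74, SE 0.29). *Mki67* was 1.24 lower on this scale (adjusted p = 0.00747). Without alveolar replicate 2 its difference was -0.75 and did not pass (adjusted p = 0.0885). The counts without that library were 3 higher and 13 lower.

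CD24hi airway cells, rich in ciliated markers, were compared with CD24lo airway cells of the same lungs. Of the 42, 3 were higher in CD24hi cells and 16 lower, with 27.8% and 27.2% of all tested genes (55.0% together). *Mki67* was at 0.210, 0.551 and 0.226 RPKM in CD24hi and 0.731, 1.64 and 1.15 RPKM in CD24lo cells (log2 fold change -1.82, SE 0.38, edgeR adjusted p = 0.000558). *Plk1* differed most, with 1.10, 0.807 and 0.678 RPKM against 5.35, 5.21 and 5.23 RPKM (-2.61, SE 0.19, adjusted p = 5.87e-09). The 3 higher genes were *Pttg1*, *Kif11*, the kinesin that pushes spindle poles apart, and *Kif23*. *Pttg1* was at 83.1, 75.2 and 68.2 RPKM in CD24hi cells, the highest level of any of the 42 in any population, and at 32.0, 20.6 and 21.2 RPKM in CD24lo cells (1.61, SE 0.14, adjusted p = 3.13e-08). *Kif23* was at 4.89, 5.34 and 4.94 RPKM against 2.85, 3.30 and 3.70 RPKM (0.63, SE 0.21, adjusted p = 0.0164), and by 0.53 without CD24lo replicate 1, which did not pass (adjusted p = 0.0546). *Kif11*, at 0.767, 1.32 and 1.40 RPKM against 0.688, 0.672 and 0.621 RPKM, differed by 0.81 (SE 0.25, adjusted p = 0.0103), and by 0.79 in the fit of the 6 libraries alone (adjusted p = 0.0501). Some markers of other cells differed too. Lower in CD24hi cells were 4 of 4 basal, 3 of 3 club, 4 of 4 alveolar type 2 and 6 of 6 fibroblast or smooth muscle markers. Of 8 leukocyte markers 0 passed in either direction, and of 3 suprabasal or hillock markers 1 was higher and 2 lower. Endothelial markers summed to 58.0 to 212.2 RPKM in CD24hi and 121.0 to 281.3 RPKM in CD24lo cells, which overlapped. The basal markers summed to 4.51 to 5.46 RPKM in CD24hi and 41.9 to 76.3 RPKM in CD24lo cells, and the fibroblast or smooth muscle markers to 41.5 to 77.1 and 208.6 to 261.1 RPKM. The part of these markers' cells in the differences was not tested.

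Both airway populations were set against alveolar cells as well. CD24hi cells had 6 of the 42 higher and 17 lower, with 30.5% and 31.4% of all tested genes (61.9% together). With library size alone the split was 10 and 15. The 6 were *Kif23* (log2 fold change 1.96, SE 0.23, edgeR adjusted p = 6.56e-07), *Pttg1* (1.43), *Kif2c* (1.26), *Kif11* (1.21), *Dlgap5* (1.18) and *Cdk1* (0.63, SE 0.24, adjusted p = 0.0321). *Cdk1* and *Dlgap5* both lost their calls in the fit of the 6 libraries alone and without CD24hi replicate 2, alveolar replicate 1 or alveolar replicate 3, and *Cdk1* also without CD24hi replicate 3. In those fits *Cdk1* differed by 0.42 to 0.72 (adjusted p = 0.0517 to 0.169) and *Dlgap5* by 0.77 to 1.27 (adjusted p = 0.0959 to 0.128). Lower genes were led by *Bub1* (-5.80) and *Kif15* (-4.52). CD24lo cells had 8 higher and 6 lower, with 24.2% of all tested genes in each direction (48.4% together), and *Plk1* (2.95, SE 0.21, adjusted p = 2.43e-09), *Kif2c* (1.62) and *Kif23* (1.34) were the largest of the 8. These 2 comparisons depended on alveolar replicate 2. Without it, 10 were higher and 13 lower in CD24hi cells, and 15 higher and 5 lower in CD24lo cells. Without alveolar replicate 1, by contrast, 4 were higher in CD24hi cells and 6 in CD24lo cells, and the same numbers held without alveolar replicate 3. Without CD24hi replicate 2, 4 were higher in CD24hi cells.

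Of the genes that broke the common order, *Plk1*, *Bub1*, *Kif15* and *Pttg1* were then set beside coding genes next to them on mm10. This step was chosen after their values had been seen. *Plk1* lies at chr7:122159439-122169873 on the plus strand, and *Ern2*, an endoplasmic reticulum stress sensor of mucous epithelium, ends 20 bases past its end on the opposite strand. *Ern2* was at 15.8 ± 0.440 RPKM in BSCs, 35.7 ± 1.96 in non-basal cells, 5.27 ± 0.390 in CD24lo airway cells and 0.401 ± 0.130 in CD24hi airway cells (SD, n = 3), and at 0.00926 and 0.00988 RPKM in EpCAM-negative and alveolar cells. *Plk1* had 13.3 ± 0.141, 22.2 ± 1.24, 5.26 ± 0.0748 and 0.861 ± 0.214 RPKM in the first 4 and 0.578 and 0.676 RPKM in the last 2, and thus had the same 4 populations on top in the same order. *Bub1*, at chr2:127801122-127831865 on the minus strand, has *Acoxl* 7011 bases upstream, and *Acoxl* was in alveolar cells at 198.8 ± 11.6 RPKM (SD, n = 3) and at most 3.42 RPKM elsewhere. *Kif15*, at chr9:122951046-123018733 on the plus strand, has *Tmem42* 2593 bases downstream, with 86.7 ± 4.55 RPKM (SD, n = 3) in alveolar cells and at most 11.8 RPKM elsewhere.

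Over all 42 genes, 30 had a coding neighbour on one side or the other within 10 kb. For 6 of them a neighbour was over 2-fold higher in alveolar cells than in BSCs and above 1 RPKM. The share of all tested genes with such a neighbour was not counted, so whether 6 of 30 is many or few is not known. These were *Bub1*, *Kif15*, *Spc24* (*Kank2*), *Cdc20* (*Elovl1*, which overlaps its end), *Ccnb2* (*Myo1e*) and *Cenpe* (*Bdh2*). The first 3 are those that, besides *Pttg1*, differed by 0.10 or less between alveolar cells and BSCs, or were lower in BSCs, while *Cdc20* was at 1.00, *Ccnb2* at 1.86 and *Cenpe* at 3.25. *Plk1* was the single gene with a neighbour over 2-fold higher in non-basal cells than in BSCs. Neighbours higher in the other populations were not screened. An example is *Slc35f6*, 7048 bases upstream of *Cenpa*, at 12.0 RPKM in EpCAM-negative cells and 5.91 RPKM in BSCs. *Pttg1* had none within this distance: *Slu7*, 7493 bases away, was at 12.1 to 17.9 RPKM in all 6 populations. Whether reads of the neighbours were counted on these genes was not tested, since counts per exon or strand were not analysed here. Of the 42 genes, 33 shared no exonic base with another gene and 6 shared over 5%, up to 31.8% in *Kif20a*, which overlaps *Cdc23*. *Plk1* was among the 6, with 7.09% of its exonic bases shared with *Gm44985* on the opposite strand.

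**Figure D5:**
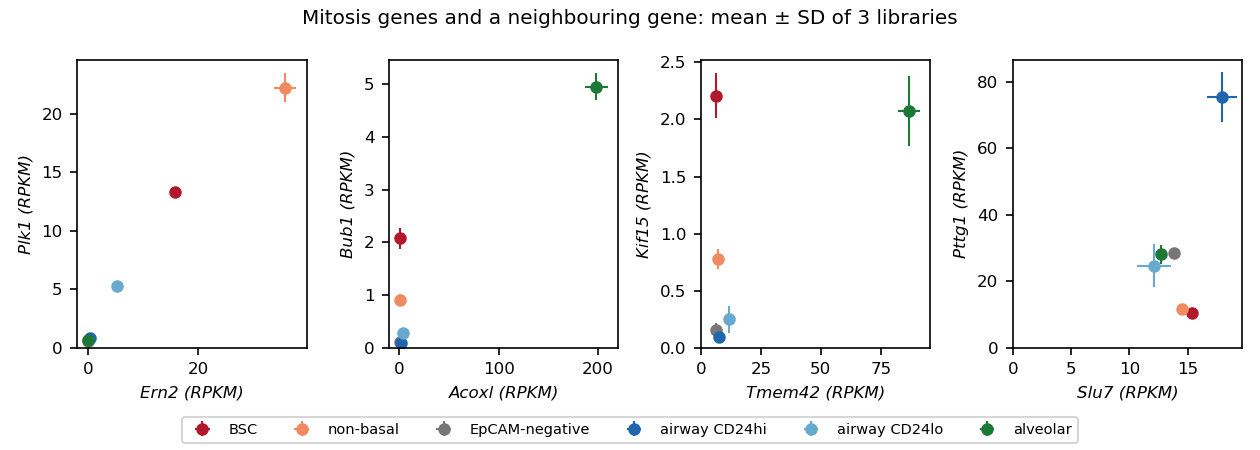
Level of *Plk1*, *Bub1*, *Kif15* and *Pttg1* (y axis, RPKM) against that of a neighbouring gene (x axis, RPKM) in the 6 populations, as mean and SD of 3 libraries. *Plk1* and *Ern2* are both highest in non-basal cells and then in BSCs, *Bub1* with *Acoxl* and *Kif15* with *Tmem42* have one population, alveolar cells, far to the right, and *Slu7* spans a narrow range beside a wide one of *Pttg1*.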

How the data were processed

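The authors aligned mouse reads to mm10 with Rsubread, assigned them to Entrez genes with featureCounts and the in-built RefSeq annotation, and deposited raw counts and a gene length per library. bcl2fastq 1.8.4 is named in the processing notes of the submitters. Whether the counting used strand is not given in the sources used here. A combined table with the same values in 18 columns was set aside. Rows without a gene numbered 0.

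Counts of all 18 libraries were analysed in R 4.3.3. The 17989 genes that exceeded 0.2 CPM in 3 or more libraries entered one quasi-likelihood fit in edgeR 4.0.16 (glmQLFit, then glmQLFTest) after TMM scaling, with 1 mean per population, with Benjamini-Hochberg adjustment over all of them and a threshold of 0.05. SEs come from the log2 fold change and F, and 95% intervals from the SE. The p-values rest on a spread within populations that was estimated from all 18 libraries together, with 3 mice to a population. Libraries of the same mouse were treated as independent in this fit. Symbols came from RefSeq on GRCm38.p6, which matched 25275 identifiers, positions and exons from the basic GENCODE M21 annotation on the same build as mm10.

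The members, the wider lists and the 8 comparisons were chosen with earlier results of these data known. Any of the 42 could be named. Values are given for the highest and lowest member of each role group by mean RPKM, for members whose call differs from the rest of their group, and for the largest and smallest difference of each wider list. Neighbouring genes and other members named with values were chosen after these were seen. Alternatives were RLE factors, library size alone, CPM above 1, no filter, DESeq2 1.42.0, limma 3.58.1 (voom), a fit of the 6 libraries compared, a replicate block, thinned tracheal libraries, a gene length correction and leaving out each library. Leaving out both libraries of mouse 1, or both airway libraries of mouse 4, was added later.

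By the labels, same-numbered libraries of one organ come from one mouse. The correlations of their deviations from the group means were 0.34, 0.12 and 0.22 for BSCs and non-basal cells, and -0.06 to 0.28 between pairs of lung populations compared. No replicate pair agreed within counting noise, with a chi-square per degree of freedom of at least 3.67. Counts for 17989 genes were simulated around each gene's mean over all 18 libraries, with only the following genes changed, in BSCs. Against non-basal cells, 22 of 67 genes changed 1.5-fold, 46 of 67 changed 2-fold and 54 of 66 changed 4-fold were called, with 4 false calls. In the real comparison 48.2% of tested genes were called and levels differ between populations, so these rates describe the simulated setting alone.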

Additional observations from a re-analysis of the deposited data

How the results depend on the processing

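The number of mitosis genes past the threshold stayed within 1.5 times its value under every alternative that was run, for all 8 comparisons. It lay between 32 and 40 for BSCs against non-basal cells, 39 and 42 for BSCs against alveolar cells, 37 and 39 for non-basal against alveolar cells, 40 and 42 for non-basal against EpCAM-negative cells, 16 and 23 for EpCAM-negative against alveolar cells, 17 and 20 for CD24hi against CD24lo airway cells, 19 and 25 for CD24hi and 11 and 20 for CD24lo airway cells against alveolar cells. With the replicate block the counts, in this order, were 37, 40, 38, 42, 21, 19, 24 and 13, and of the named values *Anln* alone lost its call, in CD24lo airway cells against alveolar cells (0.67, adjusted p = 0.0632). That call also ended without CD24lo replicate 1 or 3 and without alveolar replicate 1 or 3 (0.48 to 0.63, edgeR adjusted p = 0.0983 to 0.180). Counted calls of *Top2a* there, of *Mad2l1* in BSCs against alveolar cells and of *Anln* in non-basal against EpCAM-negative cells ended without some single libraries too. Library size alone in place of TMM moved the median of all genes to 0.31 in BSCs against non-basal cells, where 39 mitosis genes were then higher and 1 lower.

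Each single difference named in the text was taken again under each alternative that applied to it, which gave 1372 values. Of these values, 8 had the opposite sign, all for differences that had not passed the test. *Pttg1* in BSCs against non-basal cells was 0.20 with library size alone, and *Melk* was -0.024 without both libraries of mouse 1. *Kif15* in BSCs against alveolar cells was -0.10 with the gene length trend removed, -0.013 with thinned tracheal libraries and -0.020 to 0.19 over the fits that leave out 1 library, lowest without alveolar replicate 3. *Cdc20* in non-basal against alveolar cells was 0.0076 with library size alone, -0.13 to 0.040 over the fits that leave out 1 library, highest without non-basal replicate 1, and 0.041 without both libraries of mouse 1. The causes were not tested. A further 40 of the 1372 values lost their call and 13 gained one, with the same difference counted once for each alternative that changed it. Depth limits the lung values most, where sums over 3 libraries were as low as 6 reads.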
